A study of Mus musculus with 34 samples.

Results

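Ribosome-bound mRNA of parvalbumin (PV) interneurons was compared directly between mice put through contextual fear conditioning (CFC) and home cage mice labelled Nr4a1 conditional knockout (cKO). The comparison uses 6 of the 34 libraries of the series, 3 in each group, all from batch 3, and takes every gene of the table. The CFC libraries have the genotype PV:Cre/Ribotag and the treatment CFC. The cKO libraries have the genotype PV:Cre/Nr4a1-f/f/Ribotag and the treatment Homecage, so both copies of Nr4a1 carry the floxed allele and no cKO mouse was conditioned. All 6 are given as C57/BL6 mice at postnatal day 60, with cortex and hippocampus as the tissue. The time from conditioning to collection was not found in the labels. Conditioning and genotype differ together between the groups, so their parts in any difference cannot be told apart. Batch 3 also holds 3 PV libraries of home cage mice without the floxed allele. Their levels are given beside the results. They entered 1 alternative fit, of all 9 libraries of batch 3, and no other test of this comparison.

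In RiboTag mice, Cre switches a cell to an HA-tagged form of Rpl22, a protein of the large ribosomal subunit, and an antibody to the tag then recovers that cell's ribosomes and the mRNA on them. Cre here comes from the Pvalb gene, which is active in fast-spiking basket and chandelier interneurons of the cortex and in some cells outside that class. Nr4a1 encodes an orphan nuclear receptor of the immediate early genes, the set transcribed within minutes of strong synaptic input. ATF4 is a transcription factor whose translation rises when translation initiation is curtailed by the integrated stress response, for example under amino acid shortage. Its targets include asparagine synthetase, the enzymes of serine synthesis, amino acid transporters and tRNA synthetases.

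Total counts ran from 21148427 to 27282912 over the 6 libraries. Markers of GABA neurons in general and of fast-spiking cells were present in each. Gad1, which makes GABA, lay between 3231 and 4401 CPM. Kcnc1, a potassium channel of fast-spiking cells, lay between 601 and 693 CPM. The levels of Pvalb and Sst are given below. CPM is a gene's count scaled to its library's size, here with TMM factors. No RNA from before the pull-down is in the table, so enrichment could not be measured. Transcripts of the Y chromosome were present in CFC replicates 2 and 3 and in cKO replicate 3, and near 0 in the other 3 libraries, while Xist reached 3.15 and 3.57 CPM in cKO replicates 1 and 2 and only 0.134 CPM in CFC replicate 1. Whether each library stands for its own animals is not stated, so the p-values cover only the variation among these libraries, part of which may be technical. The 3 home cage libraries had 20353741, 15301328 and 10096035 counts, fewer than any of the 6. The ribosomal RNA gene CT010467.1 took 1.39, 2.45 and 4.60% of these counts, against 0.771 to 1.49% in the 6. Home cage CPM were scaled over all 9 libraries of batch 3, and those of the 6 over the 6 alone. Small gaps between them may reflect the scaling.

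Of 53465 genes in the table, 14666 passed the filter on low counts and were tested. At an adjusted p under 0.05, 26 genes were called (0.177% of those tested). They were 20 genes lower in CFC than in cKO libraries (0.136%) and 6 genes higher (0.0409%). Genes of amino acid metabolism and of the ATF4 response made up most of the lower side, and Nr4a1 and Jun were on the higher side. Over all genes tested, 7131 differences were positive and 7535 negative, with a median log2 fold change of -0.01. An unadjusted p under 0.05 was reached by 1244 genes (8.48% of those tested), where 733 would be expected with no difference. The number called rested on single libraries: without CFC replicate 2 it was 7, all lower in CFC, and without CFC replicate 1 it was 13. DESeq2 called 165 of 25876 genes, 104 lower and 61 higher, and these include all 26.

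Nr4a1 (ENSMUSG00000023034; chromosome 15, 101254269 to 101274795, plus strand, GRCm38) was the gene targeted in the cKO mice and it had the largest ratio of the genes higher in CFC after Gm4737, a gene at a few CPM. It stood at 58.3, 57.4 and 65.3 CPM in the CFC libraries and at 6.85, 16.9 and 7.85 CPM in the cKO libraries. Without the floxed allele, home cage libraries had 5.07, 7.46 and 11.8 CPM. The CFC libraries lay close together and far above all 6 unconditioned libraries, while the cKO and home cage libraries overlapped. The CFC level was 5.74 times that of cKO (log2 fold change 2.52 ± 0.31 SE, adjusted p = 0.0135, edgeR quasi-likelihood test). Since the cKO level was no lower than that of the home cage libraries, and counts per gene do not show which exons the reads fell in, Nr4a1 does not serve as a check of the genotype label here. The call was lost when any 1 of the 3 CFC libraries or cKO replicate 3 was left out, with log2 fold changes of 2.29 to 3.05 and adjusted p up to 0.0963 over the alternatives.

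The promoter of Nr4a1 is shown because it is the targeted gene, was called, and belongs to the immediate early genes, and because CREB, which binds cyclic AMP response elements, is a well-known activator of it. The 250 bases before its RefSeq start lie at chr15:101266596-101266845 (GRCm38.p6, plus strand). Capitals mark TGACG, the shared part of such elements, on either strand; each of the 4 matches is on the opposite strand and reads CGTCA.
Nr4a1: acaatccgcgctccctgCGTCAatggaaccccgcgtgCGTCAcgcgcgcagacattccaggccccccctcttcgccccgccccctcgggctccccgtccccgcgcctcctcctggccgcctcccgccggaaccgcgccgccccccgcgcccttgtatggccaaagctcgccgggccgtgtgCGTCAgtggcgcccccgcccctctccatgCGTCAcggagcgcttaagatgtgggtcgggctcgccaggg
The 4 matches start 233, 213, 69 and 40 bases before the start. TGACG was found on either strand in 17.8% of all 32851 promoter windows of this length. It is not particular to Nr4a1 or to the genes higher in CFC. Of 16 matched genes lower in CFC it was in 5: Asns, Atf4, Chac1, Cort and Slc7a1. Of 6 matched genes higher in CFC it was in 2, Nr4a1 and Tmsb4x. The full palindrome TGACGTCA, which contains TGACG, was in 1.55% of windows and in none of those of the called genes.

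The other members of the family were less different. Nr4a3 had 4.34, 5.15 and 5.54 CPM in CFC and 1.86, 2.64 and 3.38 CPM in cKO libraries, a log2 fold change of 0.93 ± 0.34 that was not called (adjusted p = 0.522). Nr4a2 had 3.55, 4.89 and 6.25 CPM in CFC and 3.37, 3.11 and 5.31 CPM in cKO libraries. The groups did not overlap for Nr4a3 and overlapped for Nr4a2 (log2 fold change 0.32 ± 0.35, adjusted p = 0.854). Whether either differs from Nr4a1 was not tested.

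Of 36 rapid activity-induced genes present, 35 were tested, and edgeR called 1, Jun, a subunit of the AP-1 transcription factor. DESeq2 called 6 higher, and 13 had an unadjusted p under 0.05 in the edgeR test, where 8.48% of all genes tested did. Jun (chromosome 4, 95049034 to 95052222, minus strand) had 71.1, 71.8 and 77.1 CPM in CFC libraries and 32.2, 31.9 and 37.9 CPM in cKO libraries. The groups were tight and well apart, and the home cage libraries, at 59.9, 58.5 and 47.7 CPM, lay between them. The level was 2.16 times as high in CFC (log2 fold change 1.11 ± 0.12, adjusted p = 0.0062), and the call was lost without CFC replicate 2. Over the list, 22 differences were positive and 13 negative, and the median was 0.20, against -0.01 over all genes tested. In 11 of the 35 every CFC library was above every cKO library, where 6.96% of all genes tested had that order.

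Several classical members did not pass the edgeR test although their CFC libraries all lay above their cKO libraries. Of those given next, DESeq2 called Egr1 (adjusted p = 0.0332), Junb (2.95e-05) and Dusp1 (0.00332), and edgeR called these 3 and Fos without cKO replicate 2. Fos, the AP-1 partner of Jun, had 80.2, 76.8 and 95.0 CPM in CFC and 13.7, 45.4 and 10.5 CPM in cKO libraries. Replicate 2 stood apart among the cKO libraries, and it was also the highest of them for Nr4a1. The log2 fold change of Fos was 1.86 ± 0.56 (adjusted p = 0.486), and Fos was called in 1 alternative, without cKO replicate 2 (adjusted p = 0.00176, against 0.00176 to 0.969 over the alternatives). Egr1, a zinc finger transcription factor, had 162, 201 and 184 CPM in CFC and 49.6, 93.4 and 32.2 CPM in cKO libraries, again with cKO replicate 2 highest. Its log2 fold change was 1.64 ± 0.36 (adjusted p = 0.296). Junb had 56.7, 50.4 and 57.0 CPM against 22, 34.5 and 25.0 CPM, with a log2 fold change of 1.01 ± 0.17 and an adjusted p of 0.0791. cKO replicate 2 was the highest of its group for this gene too. Dusp1, a phosphatase that shuts off MAP kinases, had 232, 220 and 202 CPM in CFC and 99.0, 170 and 118 CPM in cKO libraries and was not called (adjusted p = 0.250).

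Npas4 and Arc, both classical activity-induced genes, were not separated. Npas4, a neuron-specific transcription factor, had 2.01, 6.71 and 8.51 CPM in CFC and 2.51, 2.56 and 2.30 CPM in cKO libraries (log2 fold change 1.23 ± 0.48, adjusted p = 0.538). Arc, a synaptic capsid-like protein, had 45.2, 55.0 and 82.0 CPM against 32.0, 22.3 and 55.2 CPM (log2 fold change 0.74 ± 0.34, adjusted p = 0.610). For both genes the groups overlapped. None of the 40 delayed activity-regulated genes was called by edgeR, and their median was -0.08. Of them 12 had an unadjusted p under 0.05, where 8.48% of all genes tested did, and DESeq2 called 3 lower. The member with the smallest p was Cdkn1a, a cell cycle inhibitor, at 1.73, 2.04 and 3.27 CPM in CFC and 5.31, 9.37 and 7.85 CPM in cKO libraries (adjusted p = 0.201). None of the 18 MAP kinase feedback genes was called by edgeR, and their median was -0.07. Of the 18, 6 had an unadjusted p under 0.05, against 8.48% of all genes tested. DESeq2 called 1 higher and 1 lower.

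**Figure D1:**
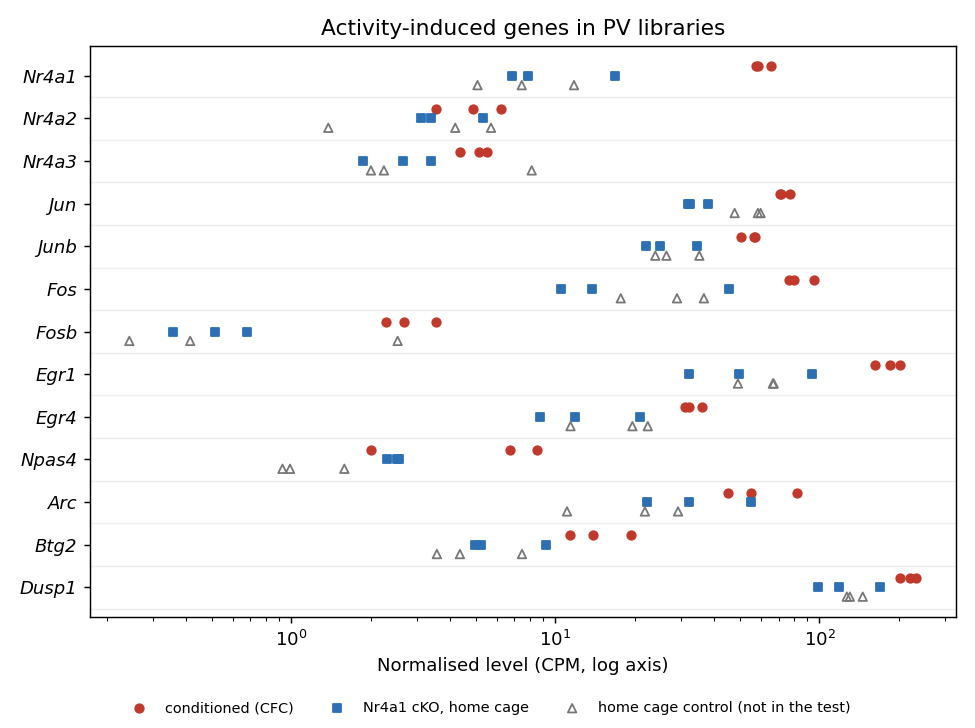
Level of activity-induced genes in each PV library of batch 3, in CPM on a log axis, with 1 point per library. Circles are CFC, squares cKO and open triangles home cage libraries, which were not in the main test. By edgeR, Nr4a1 and Jun were called; DESeq2 also called Egr1, Junb and Dusp1. For Nr4a1 the CFC points at 57.4 to 65.3 CPM stand clear of all others.

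The other 4 genes higher in CFC belong to no list. Tmsb4x encodes thymosin beta 4, which holds actin monomers. It had 1498, 1500 and 1559 CPM in CFC libraries and 837, 810 and 937 CPM in cKO libraries (log2 fold change 0.82 ± 0.10, adjusted p = 0.0100). The home cage libraries, at 1778, 1586 and 2608 CPM, were above all cKO libraries for this gene, and the lowest of them was close to the CFC range. Magi1, a scaffold of cell junctions and synapses, had 67.7, 63.1 and 48.0 CPM in CFC and 26.2, 32.0 and 29.1 CPM in cKO libraries (log2 fold change 1.03 ± 0.16, adjusted p = 0.0437). Fam114a1 had 19.4, 21 and 20.5 CPM against 8.78, 10.5 and 8.55 CPM (log2 fold change 1.13 ± 0.18, adjusted p = 0.0465). For both genes the home cage libraries were all above the cKO libraries, at 43.3 to 55.0 CPM for Magi1 and 17.2 to 23.0 CPM for Fam114a1. The predicted gene Gm4737 had 4.90, 3.12 and 1.30 CPM in CFC libraries and under 0.1 CPM in each cKO library. It varied over 3-fold within the CFC group and was at 3.85, 0.0691 and 0.22 CPM in the home cage libraries. Over the alternatives, the call was kept in 13 of 17 for Tmsb4x, 9 of 17 for Magi1, 6 of 17 for Fam114a1 and 10 of 16 for Gm4737. All 4 lost it without CFC replicate 1, CFC replicate 2 or cKO replicate 2, Magi1 also without cKO replicate 1 or 3, Gm4737 also without cKO replicate 1, and Fam114a1 without any 1 of the 6 libraries.

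The strongest common pattern lay on the lower side, where 15 of the 20 called genes are members of 4 lists on amino acid supply. The lists were chosen with earlier results of these data known, so their counts describe the pattern and do not test it. Of 18 ATF4 stress response genes 16 were tested, and 5 were called lower in CFC: Asns, Chac1, Atf4, Sesn2 and Nupr1. All but 1 of the 16 differences were negative, with a median of -1.18. In 11 of them every CFC library was below every cKO library, where 7.02% of all genes tested had that order. Summed over the tested members, the level was 622 to 642 CPM in CFC libraries, 1189 to 1382 CPM in cKO libraries and 648 to 681 CPM in home cage libraries. The CFC and home cage sums were nearly level, and the cKO sums were the ones that stood apart. Asns alone gave 310 to 343 CPM of the CFC sums and 618 to 726 CPM of the cKO sums. The sums thus repeat the calls of Asns and Atf4 in large part.

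Promoter sequence is shown for the called genes of this group that hold the core of the amino acid response element, TGATGNAA, the site at which ATF4 acts with a C/EBP partner. Of the 20 genes lower in CFC, 16 matched the RefSeq promoter table, and 3 of them had the core on either strand in the 250 bases before a start. It was in 3.45% of all windows of this length. Capitals mark the core; in Chac1 and Nupr1 it is on the opposite strand and reads as its reverse complement. The positions are chr6:7693214-7693243 (minus strand) for Asns, chr2:119350992-119351228 (plus strand) for Chac1 and chr7:126625562-126625591 (minus strand) for Nupr1, all in GRCm38.p6. For Asns and Nupr1 only a site of 30 bases is printed, since the core lies within an exon of another annotated transcript start.
Asns: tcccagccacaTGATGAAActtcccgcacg
Chac1: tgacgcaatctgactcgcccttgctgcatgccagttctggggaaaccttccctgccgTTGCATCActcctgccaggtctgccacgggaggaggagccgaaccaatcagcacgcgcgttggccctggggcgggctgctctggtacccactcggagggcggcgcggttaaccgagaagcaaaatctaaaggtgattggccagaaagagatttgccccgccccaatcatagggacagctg
Nupr1: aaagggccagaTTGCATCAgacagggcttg
The core starts 23 bases before the start in Asns, 193 in Chac1 and 110 in Nupr1. A match is a description of the letters and not evidence of binding. The response element of Nr4a1 itself, AAAGGTCA, was in 1.34% of all windows and in none of those of the called genes.

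Asns, which makes asparagine from aspartate, had 343, 312 and 310 CPM in CFC libraries and 681, 726 and 618 CPM in cKO libraries. The home cage libraries, at 333, 346 and 286 CPM, covered the CFC range. The level was 2.10 times as high in cKO libraries (log2 fold change -1.07 ± 0.10, adjusted p = 0.00274). Atf4, the transcription factor itself, had 101, 91.9 and 131 CPM in CFC and 221, 265 and 218 CPM in cKO libraries (log2 fold change -1.12 ± 0.15, adjusted p = 0.0188). Chac1, an enzyme that breaks down glutathione, had 28.4, 32.4 and 25.0 CPM against 89.6, 94.0 and 93.2 CPM (log2 fold change -1.69 ± 0.13, adjusted p = 0.000819). The cKO libraries of Chac1 lay within a few percent of each other, and no CFC library came near them.

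Sesn2, sestrin 2, a stress-induced leucine sensor upstream of mTORC1, had 33.8, 33.1 and 31.5 CPM in CFC and 85.2, 84.1 and 57.0 CPM in cKO libraries (log2 fold change -1.20 ± 0.16, adjusted p = 0.0193). Nupr1, a small stress-induced nuclear protein, had 2.94, 2.17 and 4.57 CPM against 15.4, 21.2 and 13.4 CPM (log2 fold change -2.37 ± 0.31, adjusted p = 0.0183). For both genes the groups stood apart, with more spread among the cKO than the CFC libraries. Trib3, a pseudokinase induced by ATF4, missed the threshold (adjusted p = 0.0562) at 0, 0.0866 and 0 CPM in CFC and 2.65, 1.66 and 1.69 CPM in cKO libraries. A count of 0 allows up to 3 counts, which is 0.140 CPM in CFC replicate 1 and 0.126 CPM in CFC replicate 3; such limits cover counting error only. Ddit3, which encodes CHOP and is linked to the death-promoting arm of the response, had 54.9, 54.4 and 54.4 CPM in CFC and 61.2, 72.1 and 67.7 CPM in cKO libraries and was not called (log2 fold change -0.30 ± 0.11, adjusted p = 0.527). Its groups did not overlap, but its difference was the smallest of those 11 members.

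All 13 genes of serine synthesis and mitochondrial one-carbon metabolism were tested, and 5 were called lower in CFC. Among them were all 3 enzymes that make serine from a glycolytic intermediate. Phgdh, the enzyme of the first step, had 4.48, 4.24 and 7.42 CPM in CFC libraries and 35.3, 38.8 and 31.0 CPM in cKO libraries. It was 6.50 times as high in cKO (log2 fold change -2.70 ± 0.24, adjusted p = 0.00164), and the home cage libraries, at 3.42 to 5.32 CPM, were beside the CFC libraries. Psat1, of the second step, had 33.6, 24.2 and 32.3 CPM against 98.9, 111 and 95.5 CPM (log2 fold change -1.76 ± 0.15, adjusted p = 0.00123). Psph, of the last step, had 22, 18.5 and 21.3 CPM against 53.0, 48.0 and 47.0 CPM (log2 fold change -1.26 ± 0.14, adjusted p = 0.0062). In each of the 3 the groups were far apart.

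Shmt2 and Mthfd2, which pass one-carbon units from serine to folate inside mitochondria, were the other called members. Shmt2 had 24.3, 17.3 and 18.7 CPM in CFC and 52.0, 47.9 and 44.8 CPM in cKO libraries (log2 fold change -1.26 ± 0.16, adjusted p = 0.0155). Mthfd2 had 18.9, 20.3 and 23.8 CPM against 47.5, 50.6 and 43.0 CPM (log2 fold change -1.16 ± 0.15, adjusted p = 0.0145). The cytosolic counterparts Shmt1 and Mthfd1 were not called, with log2 fold changes of 0.25 ± 0.25 and 0.19 ± 0.12. The list's median was -1.14, with 10 negative and 3 positive differences. Phgdh is high in astrocytes in the textbook view; summed over 16 astrocyte markers the level was 1310 to 1339 CPM in CFC and 1268 to 1674 CPM in cKO libraries, with a median of -0.13. edgeR called none of these markers, 1 had an unadjusted p under 0.05, and DESeq2 called Ntsr2 lower (adjusted p = 0.0486). The part of astrocyte RNA in the Phgdh result was not tested.

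Of 15 amino acid transporters present, 14 were tested and 3 were called lower in CFC. Slc7a5, the light chain of the carrier for leucine and other large neutral amino acids, had 43.0, 54.6 and 42.4 CPM in CFC and 125, 113 and 125 CPM in cKO libraries (log2 fold change -1.37 ± 0.13, adjusted p = 0.00274). Its heavy chain Slc3a2 had 169, 163 and 152 CPM against 247, 275 and 240 CPM and narrowly missed the threshold (log2 fold change -0.65 ± 0.10, adjusted p = 0.0524). Slc7a1, a carrier of arginine and lysine, had 40.5, 33.1 and 45.1 CPM against 77.8, 88.9 and 87.4 CPM (log2 fold change -1.10 ± 0.14, adjusted p = 0.0145). In none of these genes did the groups overlap. Slc7a3, another carrier of cationic amino acids, was nearly absent from CFC libraries, at 0.700, 0 and 0.461 CPM, and had 14.9, 9.84 and 9.92 CPM in cKO libraries (adjusted p = 0.0317). The 0 in CFC replicate 2 allows up to 0.130 CPM. Slc7a11, the cystine carrier that is also an ATF4 target, differed little (log2 fold change 0.25 ± 0.33, adjusted p = 0.879), and the list's median was -0.46.

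Among 36 tRNA synthetases, which charge tRNAs with amino acids, 2 were called lower in CFC. Mars, for methionine, had 62.3, 59.9 and 60.6 CPM in CFC and 103, 104 and 101 CPM in cKO libraries (log2 fold change -0.75 ± 0.10, adjusted p = 0.0193). Cars, for cysteine, had 51.3, 52.1 and 46.8 CPM against 100, 88.6 and 77.8 CPM (log2 fold change -0.83 ± 0.13, adjusted p = 0.0437). Both were well separated, and both have lower home cage values, down to 34.9 CPM for Mars and 15.7 CPM for Cars. The median of the 36 was -0.08, with 16 positive and 20 negative differences. In 9 of the 36 every CFC library was below every cKO library, where 7.02% of all genes tested had that order. An unadjusted p under 0.05 was reached by 8, against 8.48% of all genes tested, and DESeq2 called 5 lower. The call was kept in 7 of 17 alternatives for Cars, with an adjusted p of up to 0.649, and in 11 of 17 for Mars. Cars lost it without any 1 library but cKO replicate 3, and Mars without any 1 CFC library or cKO replicate 2. Among the other called genes of the 4 lists, Chac1, Phgdh, Psat1 and Slc7a5 stayed called without any 1 library, and Asns and Psph lost the call only without CFC replicate 2. Atf4, Nupr1, Mthfd2 and Sesn2 lost it without CFC replicate 1, CFC replicate 2, cKO replicate 1 or cKO replicate 2, and Sesn2 also without CFC replicate 3. Shmt2 lost it without CFC replicate 2 or 3 or cKO replicate 1 or 2, and Slc7a1 without CFC replicate 1 or 2 or cKO replicate 2. Slc7a3 stayed called only without CFC replicate 2. Mars overlaps Ddit3 on the opposite strand, and Psph and Shmt2 also overlap a tested gene on the other strand. Since whether counting used strand was not found in the labels, reads of such pairs may not be fully separated.

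**Figure D2:**
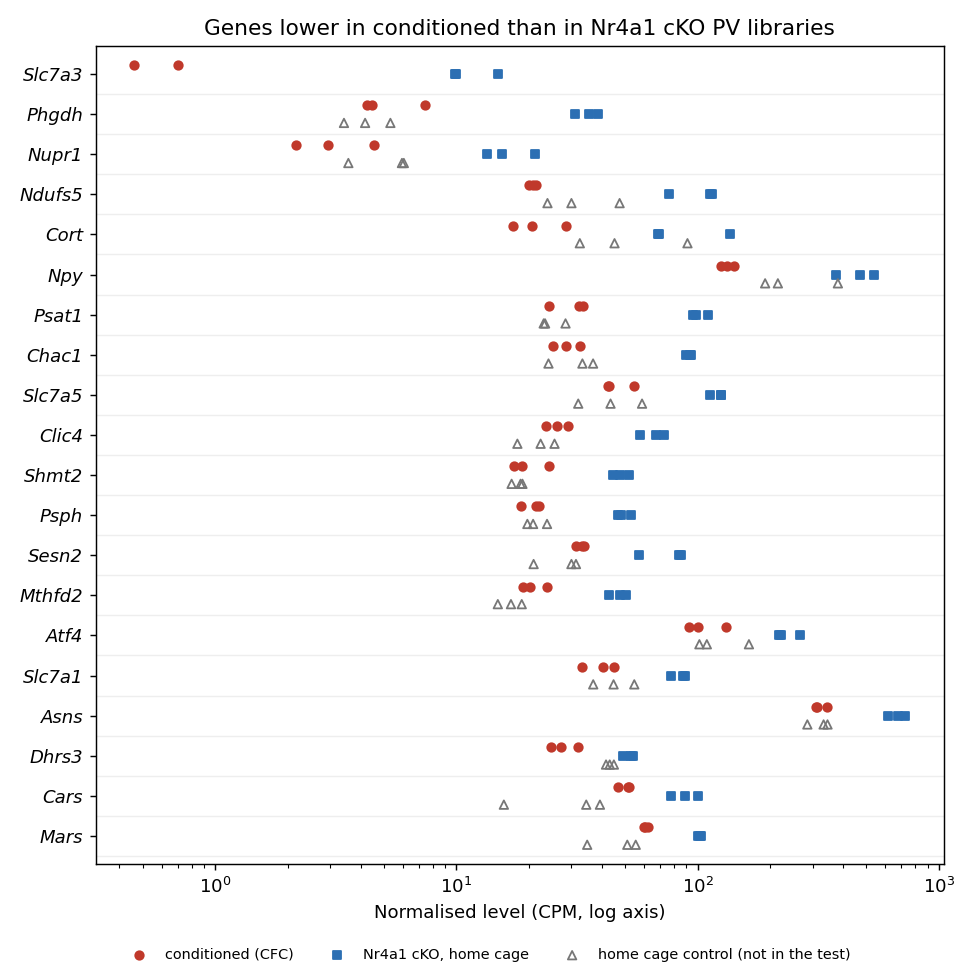
Level of the 20 genes lower in CFC in each PV library of batch 3, in CPM on a log axis, ordered by log2 fold change. Circles are CFC, squares cKO and open triangles home cage libraries, which were not in the main test. Libraries at 0 CPM are not drawn. In every gene all cKO points lie to the right of all CFC points, and for most genes, such as Asns at 286 to 346 CPM, the triangles lie with the circles.

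A pair of neuropeptide genes was lower in CFC. Npy, neuropeptide Y, had 141, 125 and 133 CPM in CFC libraries and 374, 537 and 473 CPM in cKO libraries. Home cage values, at 191, 215 and 382 CPM, lay between. The 1 that reached the cKO range was replicate 3, the home cage library with the fewest counts. The log2 fold change was -1.79 ± 0.14 (adjusted p = 0.000819), a level 3.46 times as high in cKO. Cort, cortistatin, a peptide close to somatostatin, had 20.5, 17.2 and 28.3 CPM in CFC and 69.3, 137 and 68.3 CPM in cKO libraries (log2 fold change -2.05 ± 0.30, adjusted p = 0.0474). Its home cage libraries, at 32.5, 45.3 and 90.8 CPM, bridged the groups, and its call was kept in 4 of the 17 alternatives; of the libraries left out in turn, only cKO replicate 2 left it called.

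Npy is also a marker of somatostatin (SST) interneurons, and it was the only one of 12 tested markers of that class to be called. Of the 12, 9 had negative and 3 positive differences. An unadjusted p under 0.05 was reached by 6, against 8.48% of all genes tested. In 3, every CFC library was below every cKO library, where 7.02% of all genes tested had that order. Summed over the 12, the level was 737 to 859 CPM in CFC and 1110 to 1493 CPM in cKO libraries, with a median log2 fold change of -0.44. Without Npy, which is part of that sum, the other 11 gave 611 to 726 CPM in CFC and 736 to 977 CPM in cKO libraries. The part of SST cell RNA in the Npy and Cort results was not tested. Sst itself had 207, 111 and 197 CPM in CFC and 126, 138 and 396 CPM in cKO libraries (log2 fold change -0.36 ± 0.51, adjusted p = 0.893), and its difference was 0.38 without cKO replicate 3. The 2 cKO libraries highest in Npy were replicates 2 and 3, while Sst was high in replicate 3 only. Of 13 markers of VIP and Lamp5 interneurons 12 had negative differences, with a median of -0.59 and 0 called. In bulk samples, fewer cells of a type and less RNA per cell cannot be told apart.

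Pvalb, the gene of the Cre driver, split the cKO group. It had 184, 147 and 169 CPM in CFC libraries and 1080, 1379 and 160 CPM in cKO replicates 1, 2 and 3. Home cage levels were 155, 191 and 165 CPM. cKO replicates 1 and 2 were thus several times above every other library, while replicate 3 was level with the CFC and home cage libraries. The log2 fold change of -2.39 ± 0.78 was not called (adjusted p = 0.527). Without cKO replicate 3 it was -2.89 and was called (adjusted p = 1.97e-05, against 1.97e-05 to 0.969 over the alternatives). The same replicate is the cKO library with transcripts of the Y chromosome. CFC replicate 1 and home cage replicate 1 lacked such transcripts too, and had Pvalb at 184 and 155 CPM. Whether sex bears on the split was not tested. Over the 23 PV markers tested, Pvalb included, 15 differences were positive and 8 negative, with a median of 0.04. edgeR called none of them, and DESeq2 called Tac1 lower (adjusted p = 0.0134). Of the 23, 4 had an unadjusted p under 0.05, against 8.48% of all genes tested. Syt2, a vesicle calcium sensor of fast-spiking cells, had 645, 698 and 556 CPM in CFC and 693, 478 and 434 CPM in cKO libraries.

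**Figure D3:**
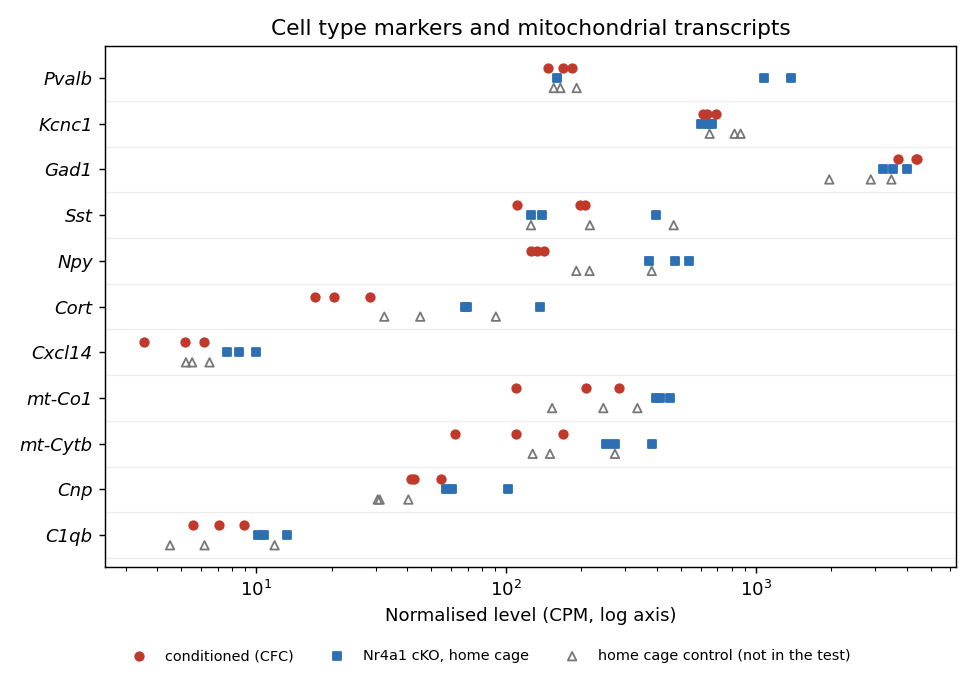
Level of interneuron markers, mitochondrially encoded transcripts and markers of glia in each PV library of batch 3, in CPM on a log axis. Circles are CFC, squares cKO and open triangles home cage libraries, which were not in the main test. Pvalb shows 2 cKO libraries at 1080 and 1379 CPM and the third at 160 CPM, while Kcnc1 and Gad1 overlap between the groups.

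Ndufs5, a small subunit of respiratory complex I, had the smallest p of the comparison. It had 21.3, 20.1 and 20.8 CPM in CFC libraries and 76.2, 112 and 114 CPM in cKO libraries, 4.88 times as high (log2 fold change -2.29 ± 0.17, adjusted p = 0.000819). The home cage libraries, at 23.9, 30.0 and 47.5 CPM, lay between the groups and nearer to CFC. Among 77 nuclear genes of oxidative phosphorylation it was the 1 gene called, and the median of the list was -0.08. Of 77 cytosolic ribosomal protein genes none was called by edgeR or DESeq2, and the median was -0.13. Of these 77, 5 had an unadjusted p under 0.05, against 8.48% of all genes tested.

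The 9 tested transcripts of the mitochondrial genome all had negative log2 fold changes, with a median of -1.06, and none was called. mt-Co1, a subunit of cytochrome oxidase, had 109, 208 and 282 CPM in CFC and 399, 413 and 453 CPM in cKO libraries (log2 fold change -1.08 ± 0.30, adjusted p = 0.4). mt-Cytb had 62.3, 110 and 169 CPM against 250, 273 and 383 CPM (log2 fold change -1.41 ± 0.35, adjusted p = 0.368). The groups did not overlap for these genes, and CFC replicate 1 was the lowest of all. The groups also did not overlap for mt-Nd1 and mt-Nd4. Of the 9, 4 had an unadjusted p under 0.05, against 8.48% of all genes tested. DESeq2 called none of them, while edgeR called 2 with the replicate number as a block and 3 with a term for Y-linked transcripts, a term chosen after seeing the data.

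**Figure D4:**
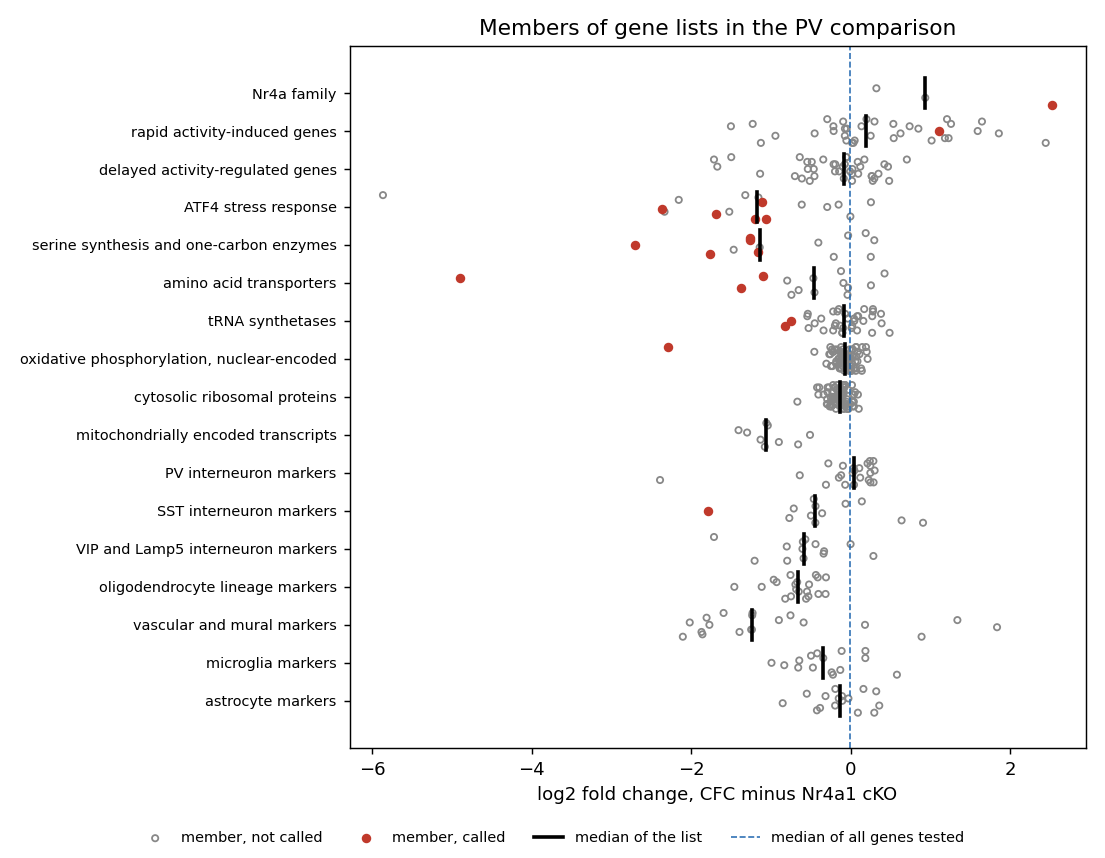
log2 fold change (CFC minus cKO) of the tested members of 17 gene lists, 1 point per gene, filled where called at an adjusted p under 0.05; black bars are list medians and the dashed line is the median of all genes tested, -0.01. The ATF4 and serine lists have medians of -1.18 and -1.14, while the ribosomal and PV marker lists have medians of -0.13 and 0.04.

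Of the markers of oligodendrocytes, vessels, microglia and excitatory neurons, edgeR called none. All 20 oligodendrocyte lineage markers had negative differences, with a median of -0.66, and 7 had an unadjusted p under 0.05. Over all genes tested that share was 8.48%. The sums of these markers overlapped, at 341 to 692 CPM in CFC and 527 to 1234 CPM in cKO libraries. Their highest sum was in cKO replicate 3, and Mbp, the main myelin gene, had 124, 147 and 230 CPM in CFC and 258, 186 and 533 CPM in cKO libraries. Of 19 vascular and mural markers 15 had negative differences, with a median of -1.24, and 2 had an unadjusted p under 0.05. Their sums overlapped, at 80.0 to 266 CPM in CFC and 78.6 to 542 CPM in cKO libraries, with cKO replicate 2 the lowest of the 6 libraries and replicate 3 the highest. DESeq2 called the vascular marker Col4a2 lower (adjusted p = 0.0495). Microglial markers had a median of -0.35, with 1 of 15 at an unadjusted p under 0.05. Excitatory neuron markers had a median of -0.14, with 2 of 18. The part of these cells in the results above was not tested.

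The last of the called genes were Clic4 and Dhrs3. Clic4, an intracellular chloride channel protein, had 23.6, 26.2 and 29.0 CPM in CFC and 67.5, 57.8 and 72.4 CPM in cKO libraries (log2 fold change -1.33 ± 0.14, adjusted p = 0.00501). Dhrs3, which reduces retinaldehyde to retinol, had 27.1, 31.8 and 24.6 CPM against 49.0, 53.1 and 54.0 CPM (log2 fold change -0.90 ± 0.14, adjusted p = 0.0453). The groups did not overlap in either; the home cage libraries were with CFC for Clic4, at 17.9 to 25.5 CPM, and nearer to cKO for Dhrs3, at 41.7 to 45.0 CPM. Clic4 lost its call only without CFC replicate 2, while Dhrs3 lost it without any 1 of the 6 libraries and kept it in 7 of 17 alternatives. Among 170 genes within 2 Mb of Nr4a1, 65 were tested and edgeR called 0. Their median was -0.02, with a range of -2.06 to 3.55. Of the 65, 10 had an unadjusted p under 0.05, where 8.48% of all genes tested did. In 10, every CFC library was above every cKO library, where 6.96% of all genes tested had that order. In 3, every CFC library was below every cKO library, against 7.02% of all genes tested. DESeq2 called 1 of the 65 higher and 1 lower.

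The home cage libraries of the same batch place each called gene without entering its main test. For 18 of the 20 genes lower in CFC, every home cage library was below every cKO library, the exceptions being Npy and Cort. For 4 of the 20, every home cage library was above every CFC library. Of the 6 genes higher in CFC, every home cage library was above every cKO library in 4, and every home cage library was below every CFC library in 2, Nr4a1 and Jun. These counts share the CFC and cKO libraries with the calls, which favours such orders in advance. The share of all genes tested with each order was not worked out, so the counts only describe levels.

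The same contrast can be made in SST libraries, from mice with Cre driven by Sst: 3 CFC libraries of batch 4 against 3 home cage libraries with the genotype Sst:Cre/Nr4a1-f/f/Ribotag of batch 5. There batch, conditioning and genotype all differ together and cannot be told apart. Of 14837 genes tested 1630 were called (11%), 999 higher (6.73%) and 631 lower (4.25%) in CFC. All 20 genes lower in PV CFC libraries were tested in SST, and 10 were called in the same direction, which is 10 of the 631 genes lower there. Of the 6 genes higher in PV, 5 were tested in SST and 3, Nr4a1, Jun and Tmsb4x, were called in the same direction. Nr4a1 had a log2 fold change of 2.74 ± 0.18 in SST and Jun of 1.03 ± 0.20. Asns had -0.65 ± 0.10 and Mthfd2 -1.09 ± 0.19 in SST, both called. Against SST home cage libraries of the same batch 4, SST CFC libraries had 6 called genes of 14614 (0.0411%), 5 of them higher (0.0342%), and Nr4a1 was the 1 of the 26 among them (log2 fold change 2.43 ± 0.21). Those CFC libraries also enter the SST contrast above. On the ATF4 list 6 of 16 members were called lower in SST, where 4.25% of all genes tested were. Of the 16 differences there 12 were negative and 4 positive, with a median of -0.67.

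A test of the difference between the PV and the SST contrast over all 12 libraries called 423 of 16006 genes (2.64%), among them 8 of the 26. The 26 were picked for their differences in these same PV libraries, so larger values in PV than in SST were favoured in advance. Npy and Ndufs5 were lower in CFC in PV and higher in SST, where their log2 fold changes were 0.44 ± 0.08 and 0.81 ± 0.20. In the SST contrast the nuclear genes of oxidative phosphorylation had a median of 0.60, with 57 of 77 called higher. The cytosolic ribosomal protein genes had a median of 0.97 there, with 73 of 77 called higher, and all 9 mitochondrial transcripts were called higher, against a median of -0.05 over all genes tested. Phgdh, Psat1 and Slc7a3 were lower in CFC in both, and more so in PV. Sesn2 had 0.13 ± 0.18 and Magi1 -0.10 ± 0.15 in SST. The remaining member of the 8 was Cort, at 0.38 ± 0.13 in SST (adjusted p = 0.0977). For Nr4a1 the difference between PV and SST was -0.24 ± 0.38 (adjusted p = 0.8), which does not show that the responses are alike.

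**Figure D5:**
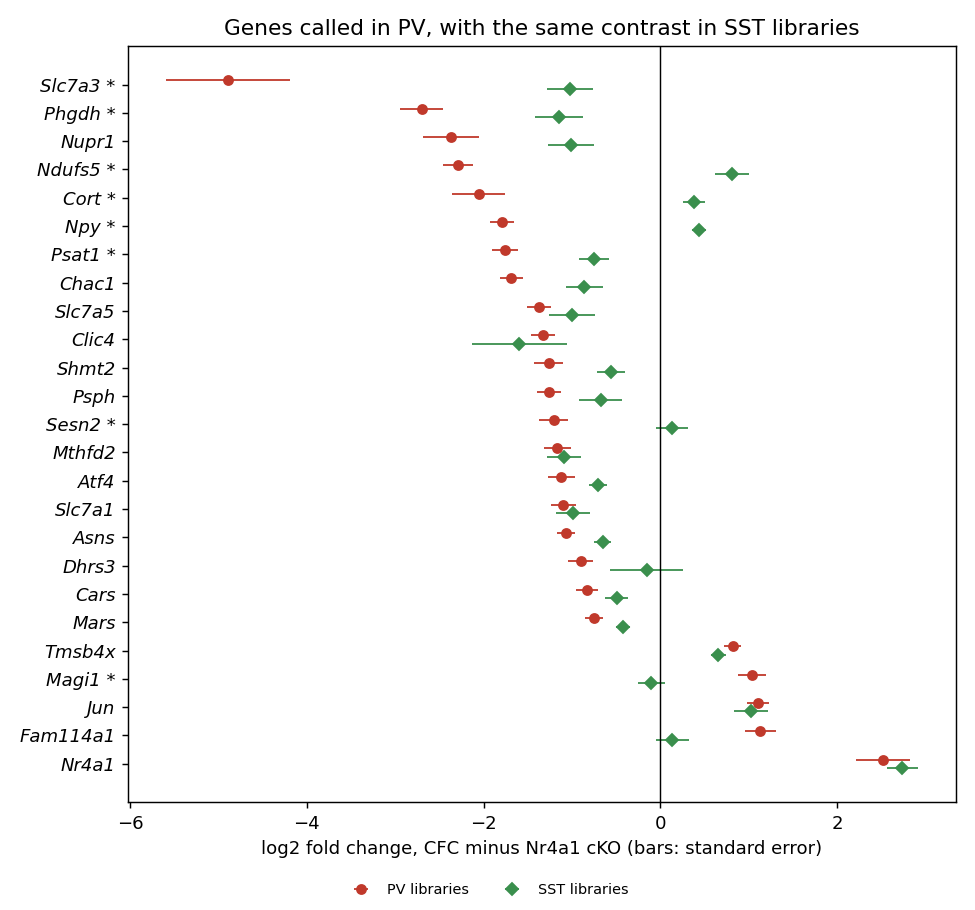
log2 fold change (CFC minus cKO) with its standard error for the 25 genes called in PV libraries (circles) that were also tested in SST libraries (diamonds); a star marks genes whose PV and SST values differ at an adjusted p under 0.05. Nr4a1 is at 2.52 and 2.74, while Ndufs5 is at -2.29 in PV and 0.81 in SST.

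In PV libraries of batch 1, pentylenetetrazol (PTZ), a convulsant, was compared with saline, with no library in common. Of 13598 genes 4 were called (0.0294%), Fos and Npas4 among them, with log2 fold changes of 3.91 ± 0.51 and 4.80 ± 0.48. Nr4a1 had a log2 fold change of 2.69 ± 0.59 with PTZ and was not called (adjusted p = 0.239). Asns had -0.27 ± 0.22 and Phgdh 0.70 ± 0.52, neither of them called. The median of the ATF4 list was -0.10 with PTZ and that of the rapid list 1.42, against -1.18 and 0.20 in the comparison of conditioned with cKO libraries.

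Lists of neuronal function held no called gene by edgeR, and DESeq2 called none in the 5 lists named next, where 1 to 5 members each had an unadjusted p under 0.05. Voltage-gated potassium channels (32 tested) had a median of 0.11, sodium and calcium channels (23 tested) -0.01, GABA-A receptor subunits (12 tested) -0.04, glutamate receptor subunits (22 tested) -0.12 and synaptic vesicle genes (31 tested) 0.06. Genes of the PGC-1 and ERR regulators, which control mitochondrial content, had a median of 0.29 over 10 tested. Ppargc1a, which encodes PGC-1 alpha, had 218, 281 and 232 CPM in CFC and 228, 169 and 173 CPM in cKO libraries (log2 fold change 0.36 ± 0.15, adjusted p = 0.544), and the groups overlapped. Heat shock proteins and chaperones had a median of 0.06 over 31 tested, with Hspa5, the chaperone of the endoplasmic reticulum, at a log2 fold change of 0.24 ± 0.10 (adjusted p = 0.547).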

How the data were processed

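RiboTag libraries were sequenced, and the authors deposited whole-number counts per gene for batches 3, 4 and 5. For batch 1 the deposited values per gene were treated as estimated counts, since not all were whole. cutadapt 1.18, STAR 2.5.2a, HTSeq 0.11.0 and DESeq2 are named in the submitters' processing notes, with the builds mm10 and GRCm39 and no role for either; strand use was not found there. In batch 1, 11.3% of values were not whole and were rounded. Coordinates are from GENCODE M21 (GRCm38), in which 53360 of 53465 gene IDs were found. Groups follow the labels. The 6 libraries were fitted alone with edgeR 4.0.16 (R 4.3.3): filterByExpr, TMM scaling and robust quasi-likelihood F tests, two-sided, with Benjamini-Hochberg adjustment over all genes tested. A gene was called at an adjusted p under 0.05. DESeq2 1.42.0, limma 3.58.1 (voom), other scalings, filters, terms and left-out libraries were alternatives. So was a fit of all 9 libraries of batch 3, home cage included. All called genes are named, with members of the lists and of the markers that bear on them. The members and lists were chosen with earlier results of these data known. On simulated counts for this comparison (14293 genes), 98.9% of 89 genes changed 4-fold and 75.7% of 111 genes changed 2-fold were recovered. Changes were put only into genes with a mean of at least 5 CPM. Counts were drawn from the fitted spread of each gene, with no outlying library built in, so recovery of other genes was not measured.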

Additional observations from a re-analysis of the deposited data

Results flagged for a closer look

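The difference between the PV and the SST contrast (CFC minus cKO in each) had an adjusted p under 0.05 for 19 of the genes named or listed as markers. On the SST side batch and genotype change together, so batch cannot be told apart from the rest. Genes called in PV were picked with the same PV libraries, which favours larger values in PV. Of genes called in PV, the difference (PV minus SST, log2) was -3.12 for Ndufs5 (adjusted p = 0.000194), -2.25 for Npy (6.16e-05), -2.46 for Cort (0.00494), -1.36 for Sesn2 (0.0144) and 1.11 for Magi1 (0.0208). It was -3.90 for Slc7a3 (0.0125), -1.57 for Phgdh (0.0442) and -1.03 for Psat1 (0.0391). Of neuronal genes not called in PV, it was -1.51 for Cxcl14 (0.0451), 1.23 for Grik1 (0.0325), -1.21 for Vgf (0.00652) and -2.05 for Nrgn (0.00255). Of glial markers, it was -2.09 for C1qb (0.0147), -1.25 for Cnp (0.0303) and -1.50 for Ntsr2 (0.0342). mt-Co1 and mt-Cytb had -2.92 (0.004) and -3.32 (0.0054), and the ribosomal protein genes Rpl12 and Rpl30 had -1.25 (0.00494) and -1.47 (0.00533). All adjusted p are from edgeR's quasi-likelihood test.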

How the results depend on the processing

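In the PV comparison 26 genes were called, 6 higher and 20 lower. DESeq2 called 165 (61 higher, 104 lower), no filter on low counts gave 71 (27 higher, 44 lower), and a term for Y-linked transcripts, chosen after seeing the data, gave 31 lower. The lower share was 76.9%, against 63.0% with DESeq2 and 62.0% without the filter. Leaving out 1 library gave 7 to 27 called, 0 to 8 higher and 7 to 22 lower. The replicate block gave 24, and a fit of all 9 libraries of batch 3, home cage included, gave 20. Same-numbered libraries had correlations of -0.0767, 0.0210 and 0.192, and only number 3 correlated best with its own number, so the numbers were not taken to pair samples. The SST contrast (1630) gave 2592 with DESeq2, 904 with the replicate block and 480 to 1605 without 1 library. PV PTZ (4) gave 211, 2 and 0 to 14, and SST CFC minus home cage (6) gave 113, 2 and 1 to 37, with 11 unfiltered. The difference of PV and SST (423) gave 161 to 1094 without 1 library. The cause of these moves was not tested. Ndufs5, Chac1, Npy, Psat1, Phgdh and Slc7a5 were called in all 17 alternatives. No called gene changed sign. Of genes not called, leaving out 1 library took Sst (-0.36) to between -0.63 and 0.38, positive without cKO replicate 3, and Gabra2 (-0.39) to between -0.62 and 0.018, positive without cKO replicate 2. Genes at a few counts have the least depth behind them.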

Other observations

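Of the 26 called genes 6 lie on chromosome 4, which holds 6.05% of the genes tested. The 5 that were lower in CFC (Ndufs5, Sesn2, Clic4, Dhrs3 and Cort) lie between 4:123712710 and 4:149126763 (GRCm38), a span drawn around them after their values were seen. That span holds 300 tested genes, with 154 positive and 146 negative differences and a median log2 fold change of 0.01. In it 13% of genes had an unadjusted p under 0.05, against 8.48% of all genes tested. Rpl22, the gene that carries the tag, lies on the same chromosome beyond the span, at 152325742 to 152334071, and had 48.6, 45.5 and 49.4 CPM in CFC and 44.6, 55.1 and 51.0 CPM in cKO libraries.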
